A study of Homo sapiens with 12 samples.

Results

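The genes described here are 42 interferon-stimulated genes, a fixed list of names found in full among the 19970 protein-coding genes with a canonical start site on chromosomes 1 to 22 and X (GENCODE release 44, GRCh38). They were followed in U-937, an established line of human acute myeloid leukaemia cells with monocytic features, by chromatin immunoprecipitation and sequencing of H3K4me2, the dimethylated form of lysine 4 on histone H3. Cells were treated for 24 hours with the vehicle DMSO, with all-trans retinoic acid (ATRA) at 0.1 µM, with Corin at 0.1 µM, or with both drugs at 0.1 µM each. ATRA activates the retinoic acid receptors and drives myeloid cells to mature. Corin is a small molecule built to inhibit CoREST, a repressor complex that holds both a histone demethylase, LSD1, and deacetylases. Each treatment had 2 H3K4me2 libraries and 1 input library, 12 libraries in all, and all came from this 1 cell line. The deposited values are 4 peak lists, 1 per treatment and pooled over its libraries. No value per replicate was available, so there is no replicate error and no test, and the main counts are set beside the same counts over all protein-coding genes or all regions. The depth of each library cannot be read directly from a peak list, and its part in the results was not tested.

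Interferons are secreted proteins that warn cells of infection. Type I interferons bind the IFNAR1 and IFNAR2 receptor chains, the kinases JAK1 and TYK2 are activated, and STAT2 and IRF9 enter a complex that binds the interferon-stimulated response element (ISRE). Interferon gamma acts on the gamma-activated site (GAS). The induced genes encode sensors of foreign RNA and DNA, enzymes and binding proteins that block viral growth, and members of the pathway itself. H3K4me2 lies over promoters and enhancers, usually on both sides of a start site, and LSD1 removes it.

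The promoters were searched for the ISRE and the GAS. RefSeq promoter windows of 300 bases (250 before the start site, GRCh38.p14) were matched for 33 of the 42 genes. IFIT2, MX2, OAS2, OASL, IRF7, USP18, GBP2, GBP5 and TRIM22 were not matched. An ISRE, searched on both strands as GAAA, any 2 bases, then GAAA, was present in 22 of the 33 windows (66.7%), compared with 454 of 14546 windows of all protein-coding genes (3.12%). A GAS, searched as TTCNNNGAA, was present in 9 of the 33 (27.3%), compared with 6.67% of all windows. The 2 motifs can overlap each other, and 5 windows held both. No match to either was found in IFI16, MX1, STAT2, XAF1, SAMD9L, HERC6 and CMPK2. The member windows were also less rich in CpG, with a median of 9 CpG dinucleotides and 53.7% GC, compared with 24 and 64% over all windows.

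The windows of 6 genes follow, chosen because these genes carry the main patterns of the peak data. ISG15 and IFIT1 were covered in every list, HERC5 and IRF1 had a gap at the start site after treatment, GBP1 was covered after the combination and not in the other lists, and IFI44L was uncovered in every list. Capitals mark the ISRE, or in IRF1 the GAS.
ISG15, chr1:1013247-1013546, plus strand: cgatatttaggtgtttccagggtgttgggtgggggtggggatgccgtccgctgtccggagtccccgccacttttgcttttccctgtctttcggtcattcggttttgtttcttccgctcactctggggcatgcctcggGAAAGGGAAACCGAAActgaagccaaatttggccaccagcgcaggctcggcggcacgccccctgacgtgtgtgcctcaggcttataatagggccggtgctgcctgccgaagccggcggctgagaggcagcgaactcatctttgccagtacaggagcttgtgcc
IFIT1, chr10:89392373-89392672, plus strand: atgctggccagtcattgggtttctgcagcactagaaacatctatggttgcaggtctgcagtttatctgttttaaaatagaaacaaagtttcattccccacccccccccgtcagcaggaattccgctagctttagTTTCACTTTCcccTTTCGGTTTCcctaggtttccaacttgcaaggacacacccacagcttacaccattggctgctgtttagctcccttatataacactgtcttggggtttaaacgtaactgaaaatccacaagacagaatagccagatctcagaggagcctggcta
HERC5, chr4:88456869-88457168, plus strand: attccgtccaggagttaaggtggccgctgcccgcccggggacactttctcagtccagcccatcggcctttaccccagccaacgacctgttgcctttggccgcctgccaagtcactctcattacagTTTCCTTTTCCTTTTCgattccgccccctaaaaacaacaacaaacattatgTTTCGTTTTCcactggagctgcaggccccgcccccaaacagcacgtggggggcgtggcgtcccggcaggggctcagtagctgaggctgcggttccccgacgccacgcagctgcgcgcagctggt
GBP1, chr1:89065159-89065458, minus strand: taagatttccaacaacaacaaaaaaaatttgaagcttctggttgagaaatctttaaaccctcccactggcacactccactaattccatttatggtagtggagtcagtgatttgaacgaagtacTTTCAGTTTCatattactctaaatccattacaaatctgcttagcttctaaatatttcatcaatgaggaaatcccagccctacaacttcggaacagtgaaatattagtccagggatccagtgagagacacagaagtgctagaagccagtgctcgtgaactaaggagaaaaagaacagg
IFI44L, chr1:78620198-78620497, plus strand: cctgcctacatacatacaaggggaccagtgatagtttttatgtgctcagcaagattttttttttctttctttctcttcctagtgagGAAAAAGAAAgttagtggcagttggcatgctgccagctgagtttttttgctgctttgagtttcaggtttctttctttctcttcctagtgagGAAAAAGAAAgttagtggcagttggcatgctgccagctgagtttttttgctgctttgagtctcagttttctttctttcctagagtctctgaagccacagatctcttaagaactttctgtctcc
IRF1, chr5:132490724-132491023, minus strand: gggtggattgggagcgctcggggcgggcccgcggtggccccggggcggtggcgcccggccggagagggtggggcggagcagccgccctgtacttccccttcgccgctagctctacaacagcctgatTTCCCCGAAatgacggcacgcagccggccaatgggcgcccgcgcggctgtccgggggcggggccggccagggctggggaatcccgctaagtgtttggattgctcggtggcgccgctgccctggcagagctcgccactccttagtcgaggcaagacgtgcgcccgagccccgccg
The ISRE of ISG15 and of IFIT1 is 2 overlapping or adjacent copies. HERC5 has 3 copies and GBP1 has 1. IFI44L has 2 copies within a repeated stretch, and IRF1 has a GAS with no ISRE match. A match is a match of letters in this window and does not show binding.

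Start sites of the family were under H3K4me2 peaks more often than those of all genes, in DMSO already. A peak covered the canonical start site of 33 of the 42 genes in DMSO (47.3% of all protein-coding genes), of 31 after ATRA (48.1%), of 29 after Corin (38.0%) and of 28 after the combination (38.0%). Both the family and all genes had fewer covered start sites in the 2 lists from cells given Corin. Of the 22 genes with an ISRE match, 15 were covered in DMSO, 15 after ATRA, 13 after Corin and 11 after the combination. Of the 11 with a window and no ISRE match, 10, 9, 8 and 8 were covered, a larger share in each list. Over all protein-coding genes with an ISRE match the shares were 43.4, 42.7, 35.7 and 35.0%. Without a match they were 48.7, 49.6, 38.3 and 38.2%, so the direction was the same over all genes.

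A set of 7 genes was uncovered in every list, namely IFI27, IFI44, IFI44L, MX1, RSAD2, GBP4 and EPSTI1. An ISRE match is present in 6 of these 7, but also in 22 of all 33 member windows. Over all protein-coding genes, 230 of the 6521 windows uncovered in every list have a match. Over all protein-coding genes, 46.4% were uncovered in every list. MX1, a dynamin-like GTPase that blocks virus replication, was uncovered at its canonical start site but not at others. A peak of 2093 bp in DMSO, 2830 bp after ATRA, 2493 bp after Corin and 3266 bp after the combination lay over other start sites of MX1, and 10 of its 28 annotated start sites were covered in each list. In DMSO its near edge was 4723 bp upstream of the canonical site. RSAD2, which encodes the antiviral enzyme viperin, had 1 peak in its annotated body in each list, and that peak is the start-site peak of its neighbour CMPK2. It also lies over 3 of the 4 annotated start sites of RSAD2. IFI27 had its nearest peak downstream of its start site, at 4034 bp in DMSO, 3985 bp after ATRA, 4090 bp after Corin and 4002 bp after the combination. IFI44, IFI44L and GBP4 had no peak in the gene body in any list. EPSTI1 had 1 weak body peak, in the Corin list.

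Losses of start-site cover were gaps between 2 flanking peaks, 120 to 1154 bp long. After ATRA, 2 of the 33 genes covered in DMSO were uncovered (8.23% of all genes covered in DMSO), IRF1 and TRIM22. After Corin there were 4 (24.4%), STAT2, IRF1, SAMD9 and HERC5. After the combination there were 7 (25.2%), IFIT5, STAT2, IRF1, BST2, SAMD9, PARP14 and HERC5. Each of these genes kept a peak within 1 kb of its start site in every list, so the counts were 0 when a peak within 1 kb was counted as cover. At STAT2, which binds IRF9, the flanking peaks ended at -395 bp and began at 26 bp from the start site after Corin (negative is upstream), and at -407 and 33 bp after the combination. The STAT2 peaks were already split in DMSO, at -411 and -148 bp, and after ATRA, at -401 and -9 bp, with the start site covered. At HERC5, the main ligase that attaches ISG15 to proteins, the gap was 298 bp after Corin and 202 bp after the combination. The downstream HERC5 peak began only 9 and 3 bp from the start site. At SAMD9, a restriction factor of poxviruses, the gap was 200 bp and 120 bp, and the downstream peak began at 37 and 6 bp. The gap was 165 bp at IFIT5, an RNA-binding protein, 126 bp at BST2, the tether that holds budding virions, and 141 bp at PARP14, an ADP-ribosyltransferase, each in the combination list alone. At TRIM22, a ubiquitin ligase, the start site lay in a gap of 263 bp after ATRA only. Its peaks were also split in DMSO, at -189 and -18 bp, and after the combination, at -168 and -16 bp. In those 2 lists the downstream peak just reached over the start site. In the combination list, peaks were likewise split beside other start sites counted as covered. The edges lay at -118 and -13 bp at IFIT2, at -165 and -14 bp at IFIT3, and at -162 and -5 bp at IRF9. At some genes, then, only a few bases separated a covered from an uncovered start site.

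IRF1, a transcription factor induced by interferon gamma, was the one member covered in DMSO and in no drug list. Its peaks were already split in DMSO, where 1 ended at -162 bp and the next began at -9 bp, just over the start site. The gap that held the start site was 233 bp after ATRA, 278 bp after Corin and 1154 bp after the combination. The last is the longest gap found at a member, and it lay mostly downstream, where the next peak began at 939 bp.

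Gains of start-site cover were few. Of the 9 genes uncovered in DMSO, 0 were covered after ATRA (8.9% of all genes uncovered in DMSO), 0 after Corin (4.39%) and 2 after the combination (5.09%), namely GBP1 and GBP5. Both encode guanylate-binding proteins, GTPases that attack pathogen vacuoles and assemble inflammasomes. GBP1 had no base covered within 2.5 kb in DMSO, ATRA or Corin and a peak of 685 bp in the combination, with a −log10 q of 6.67. Such q values are the authors' own for each peak and describe it within its list. Its nearest peak in DMSO was 41874 bp away. The GBP5 start site lay in a gap of 564 bp in DMSO, 496 bp after ATRA and 763 bp after Corin, and under a peak of 2409 bp after the combination. That peak ended 182 bp downstream and the next began at 551 bp, so a gap remained beside the start site. So of the 2 genes, GBP1 has a peak where the other lists have none nearby.

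The larger pattern was in the breadth of the peaks. Breadth is given as the number of bases under peaks within 2.5 kb of the start site, out of 5001. Among genes with any cover in DMSO or in the treated list, cover was larger than in DMSO for 29 of 35 members after ATRA (65.5% of all genes), for 33 of 35 after Corin (79.4%) and for 34 of 36 after the combination (82.9%). The median cover of the 36 members with any was 1948 bp in DMSO, 2264 bp after ATRA, 2916 bp after Corin and 3229.5 bp after the combination. Over the 13279 genes with any cover, the medians were 2809, 2937, 3232 and 3325 bp. The family thus had narrower cover than all genes in DMSO and similar cover after the combination. The median difference from DMSO was 314 bp for members and 88 bp for all genes after ATRA, 657 and 284 bp after Corin, and 1069 and 355 bp after the combination.

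**Figure D1:**
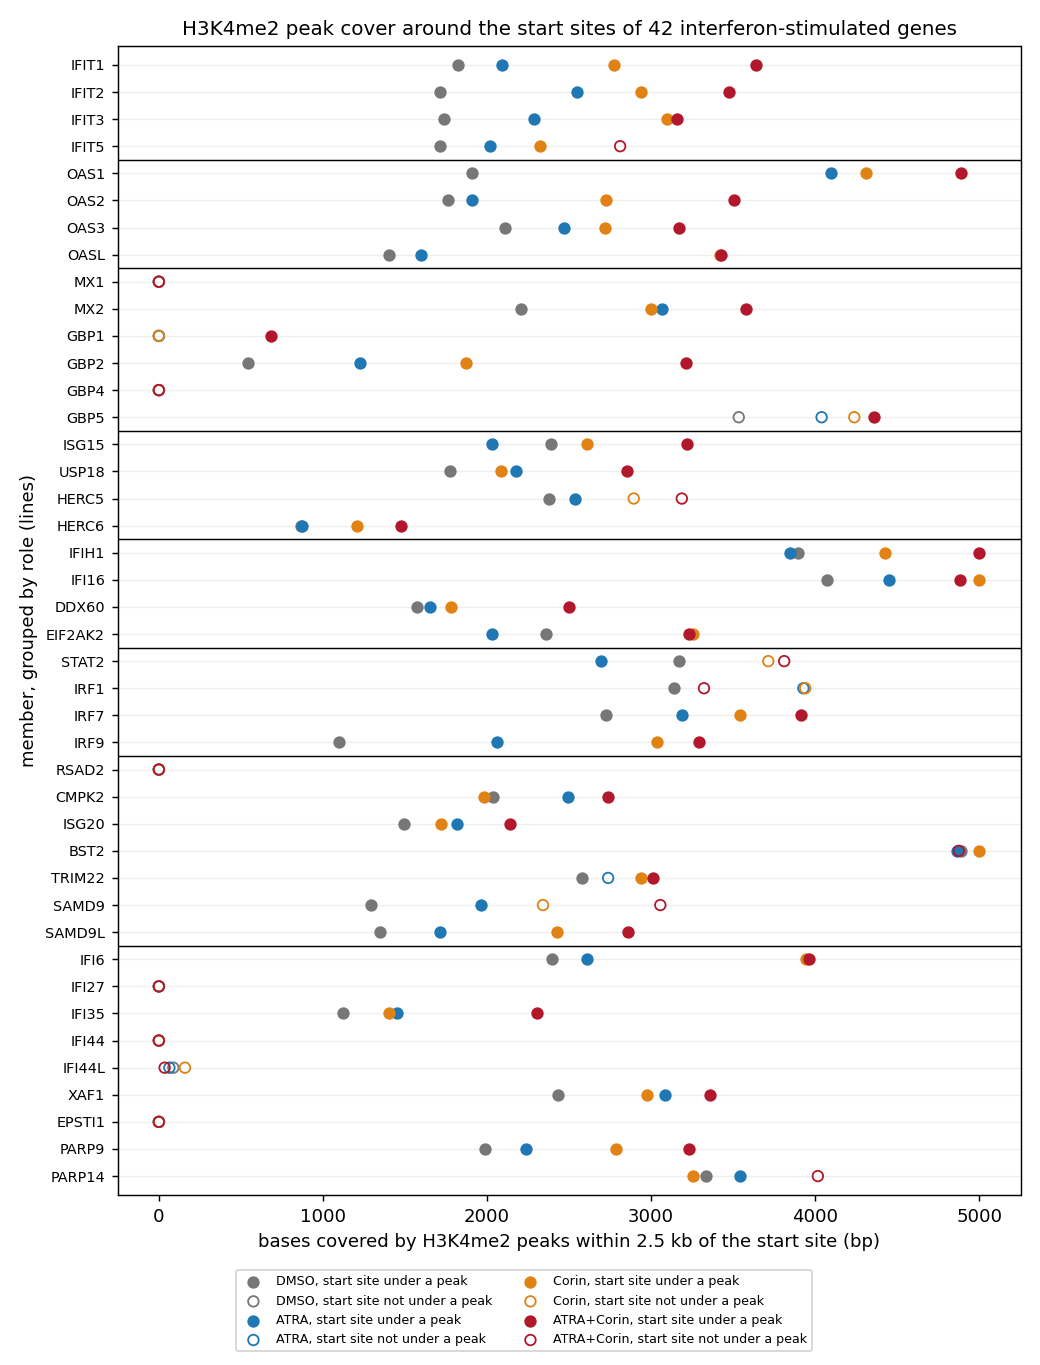
Bases covered by H3K4me2 peaks within 2.5 kb of the canonical start site (x axis, bp) for each of the 42 genes (rows, grouped by role), with 1 circle per peak list; filled circles have the start site under a peak, and circles with the same value lie on top of each other. The combination list has the largest value for 31 of the 36 genes with any cover, compared with 50.0% of all 13279 such protein-coding genes. At 0 in all lists lie 6 genes.

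The members had narrower cover in DMSO, so the differences were also set out by the width in DMSO. Among genes with 1001 to 2000 bp covered in DMSO, the median difference after the combination was 1511 bp for 15 members and 383 bp for 1815 genes. With 2001 to 3000 bp, it was 899.5 bp for 10 members and 502.5 bp for 4216 genes. With 3001 to 4000 bp, it was 680 bp for 5 members and 365 bp for 4080 genes. The members' median was the larger in each of these bands. The longer lists were also trimmed to the covered length of the shortest, keeping their strongest peaks, and the medians after the combination were then 929 bp for members and 212 bp for all genes. The trimming dropped whole peaks and shortened none of those kept.

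The added cover lay mostly downstream, over the start of the gene. The median covered length downstream of the start site went from 1114.5 bp in DMSO to 1445 bp after ATRA, 1955 bp after Corin and 2346.5 bp after the combination. Upstream it was 787, 890.5, 929 and 993.5 bp. Over all genes with any cover, the medians were 1642, 1707, 1976 and 2058 bp downstream. Upstream they were 1042, 1106, 1191 and 1251 bp. After Corin and the combination, the larger rise was thus downstream over all genes too. At 1.5 kb downstream, 10 of the 42 genes had a peak in DMSO, 15 after ATRA, 23 after Corin and 29 after the combination, and the shares of all genes were 39.1, 41.4, 48.6 and 49.6%.

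**Figure D2:**
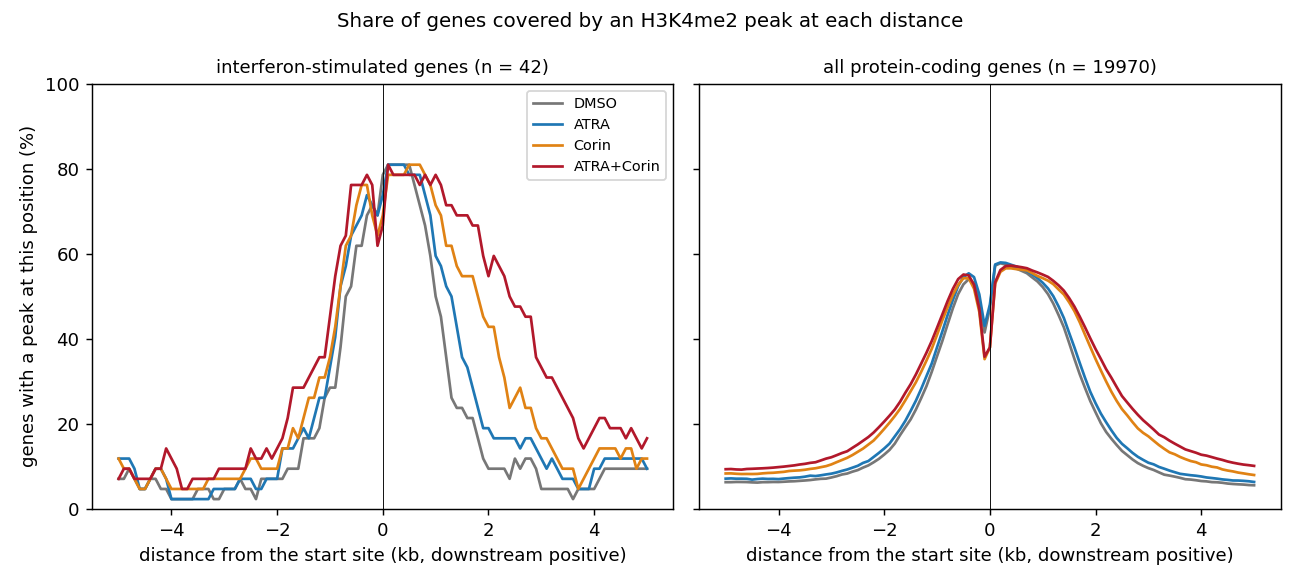
Share of genes with an H3K4me2 peak at each distance from the start site (x axis, kb, downstream positive; y axis, %), for the 42 interferon-stimulated genes on the left and all 19970 protein-coding genes on the right, with 1 line per peak list. The lines of the family part downstream of the start site, where at 1.5 kb 10 genes are covered in DMSO and 29 after the combination.

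The OAS genes encode synthetases that make 2′,5′-oligoadenylate on sensing double-stranded RNA and so activate RNase L, except OASL, which lacks that activity. All 4 were covered in every list and had more bases covered than in DMSO in every drug list. OAS1 (chr12:112905856-112933219, plus strand) had 1910 bp covered within 2.5 kb in DMSO, 4098 bp after ATRA, 4312 bp after Corin and 4888 bp after the combination, the largest difference of any member. Its start-site peak was 1595, 3929, 4375 and 11139 bp long in the same order, and peaks covered 10.8, 18.96, 20.2 and 43.1% of the gene body. OAS3 had a start-site peak of 2107, 2466, 2716 and 4407 bp, and OAS2 of 1763, 1911, 2725 and 4230 bp. OASL was different in order, with 1401 bp in DMSO and 1599 bp after ATRA but 4524 bp after Corin and 4523 bp after the combination. For OASL the 2 lists with Corin were alike and ATRA was close to DMSO.

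**Figure D3:**
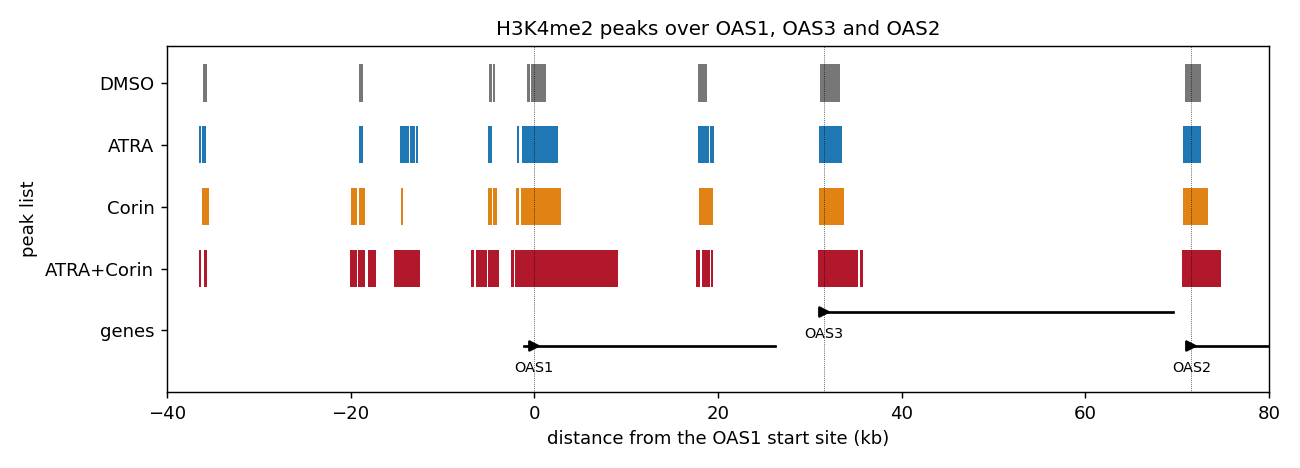
H3K4me2 peaks (bars) in the 4 lists (rows) along the neighbouring OAS1, OAS3 and OAS2 genes, by distance from the OAS1 start site (x axis, kb); black lines are gene bodies and arrowheads canonical start sites. The OAS1 start-site peak is 1595 bp long in DMSO and 11139 bp after the combination, and more bars stand upstream of OAS1 in the combination list.

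The IFIT genes encode proteins that bind viral RNA and block its translation. All 4 had more bases covered than in DMSO in every drug list. IFIT1 (chr10:89392546-89406487, plus strand) had 1820 bp in DMSO, 2090 bp after ATRA, 2771 bp after Corin and 3640 bp after the combination. IFIT2 had 1713, 2551, 2940 and 3476 bp. The start-site peak of IFIT3 was 1738, 2288, 2660 and 6513 bp long. Separate peaks after ATRA and after Corin also lay within the stretch of that 6513 bp peak. Within 5 kb of the IFIT3 start site, peaks covered 1738, 3272, 4558 and 5659 bp. IFIT1 also had a region inside the gene, chr10:89394717-89395502, 2094 bp downstream of its start site, in the combination list only. Its −log10 q there was 17.6.

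**Figure D4:**
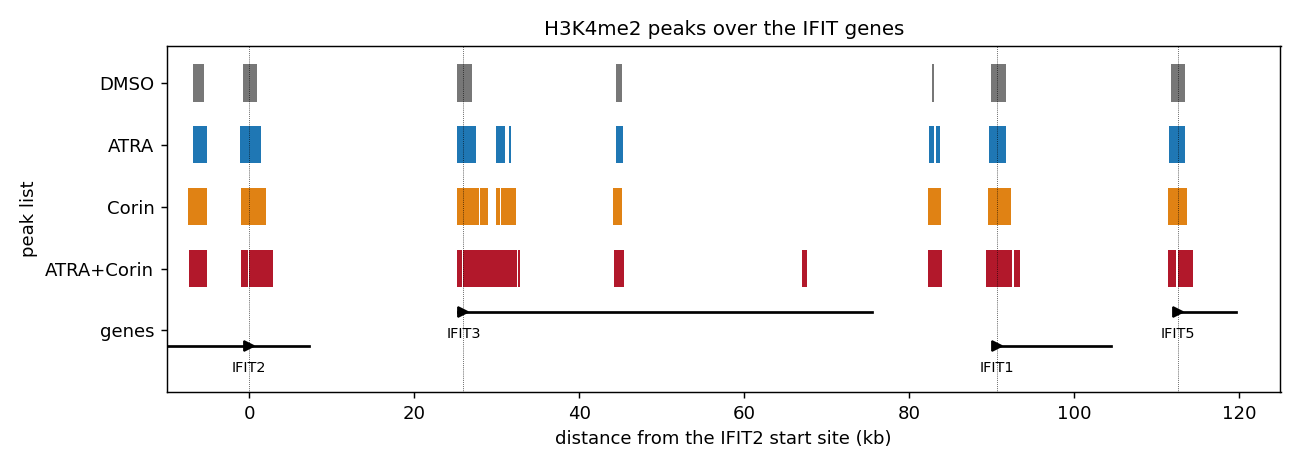
H3K4me2 peaks (bars) in the 4 lists (rows) along the IFIT2, IFIT3, IFIT1 and IFIT5 genes, by distance from the IFIT2 start site (x axis, kb); black lines are gene bodies and arrowheads canonical start sites. The IFIT3 start-site peak is 1738 bp long in DMSO and 6513 bp after the combination, and the IFIT5 start site falls in a gap of 165 bp in the combination list. Separate bars after ATRA and after Corin lie within the stretch of the 6513 bp peak.

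Among the GTPases, GBP2 had the narrowest start-site peak of the covered members in DMSO. The peak was 545 bp in DMSO, 1061 bp after ATRA, 1461 bp after Corin and 3214 bp after the combination, each list longer than the one before it in this order. MX2, an inhibitor of retroviruses, had 2208, 3067, 2997 and 3580 bp covered.

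In the ISG15 system, ISG15 itself, the ubiquitin-like protein attached to targets during the response, had 2387 bp covered in DMSO, 2032 bp after ATRA, 2609 bp after Corin and 3216 bp after the combination. It was lower than DMSO after ATRA. USP18, the protease that removes ISG15, had 1776, 2176, 2082 and 2852 bp. HERC6 had 865, 871, 1209 and 1475 bp, one of the narrowest sets.

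The sensors were covered in every list. IFIH1, which encodes the RNA sensor MDA5, had 3895 bp in DMSO, 3848 bp after ATRA, 4423 bp after Corin and all 5001 bp after the combination. IFI16, a DNA sensor, had 4074, 4448, 5001 and 4882 bp. EIF2AK2, the RNA-activated kinase PKR, had 2361, 2033, 3256 and 3231 bp, so ATRA alone was below DMSO. DDX60 had 1573, 1651, 1783 and 2500 bp.

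The transcription factors differed among themselves. IRF9 (chr14:24161234-24168043, plus strand), which binds DNA in the complex with STAT2, had 1099 bp in DMSO, 2060 bp after ATRA, 3038 bp after Corin and 3291 bp after the combination. IRF7, which induces interferon alpha genes, had 2725, 3188, 3540 and 3912 bp. STAT2 had 3171, 2695, 3714 and 3811 bp with the gap described above. IRF1 (chr5:132440440-132508719, minus strand) had 3141, 3928, 3939 and 3322 bp. The combination list was thus the widest at IRF9, IRF7 and STAT2, and at IRF1 it lay below both single drugs.

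Of the remaining genes, IFI6, a mitochondrial and endoplasmic reticulum protein that limits flaviviruses, had peaks over 49.2% of its body in DMSO, 56.3% after ATRA, 94.1% after Corin and 93.9% after the combination. SAMD9 had 1292, 1965, 2341 and 3056 bp covered within 2.5 kb. CMPK2, a mitochondrial nucleotide kinase, had 2035, 2496, 1980 and 2740 bp and was below DMSO after Corin. For 2 members the list after the combination had fewer bases covered than the DMSO list. BST2 had 4889 bp in DMSO and 4875 bp after the combination, near the largest value the window allows. IFI44L had 88 bp and 35 bp, from the edge of a peak that lies 2342 to 2466 bp away.

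Within 50 kb of the start sites the combination list held more regions than the others. A region is the union of overlapping or touching peaks of the 4 lists, and it is gained where it holds a peak after treatment and none in DMSO. Near the members lay 224 distinct regions, 145 of them in DMSO, 161 after ATRA, 168 after Corin and 204 after the combination. These are 64.7, 71.9, 75 and 91.1%, against 59.9, 66.2, 71.4 and 87.8% of all regions, which rose in the same order. All lists shared 133 (59.4%, against 51.2% of all 84577 regions), and 36 were in the combination list only (16.1%, against 16.3%). Compared with DMSO, 24 regions were gained and 8 lost after ATRA, 27 gained and 4 lost after Corin, and 64 gained and 5 lost after the combination. The gained shares of the 224 regions were 10.7, 12.1 and 28.6%, each below the 11.7, 17.3 and 32.1% of all regions. The lost shares were 3.57, 1.79 and 2.23%, below the 5.43, 5.76 and 4.18% of all regions. Joining peaks within 1 kb into 1 region gave 32 gains after the combination in place of 64, and lists with the same number of peaks gave 38.

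Counted by gene, the share with a gain was close to or below that of all genes after each single drug and above it after the combination, whereas the share of regions gained was below that of all regions. At least 1 region was gained near 16 of 42 members after ATRA (38.1%, against 37.6% of all genes), 19 after Corin (45.2%, against 50.1%) and 31 after the combination (73.8%, against 64.0%). At least 1 was lost near 7 members (16.7%, against 21.9% of all genes), 4 (9.52%, against 22.3%) and 5 (11.9%, against 17.5%). Compared with ATRA alone, the combination gained a region near 29 members (69.0%, against 59.3%), and compared with Corin alone near 30 (71.4%, against 54.9%). Whether these shares differ beyond replicate error was not tested. The median number of regions was 3, 4, 4 and 5 for members and 4, 4, 4 and 5 for all genes. Of the members, 21 lie in 8 clusters with overlapping windows, so neighbours share regions.

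**Figure D5:**
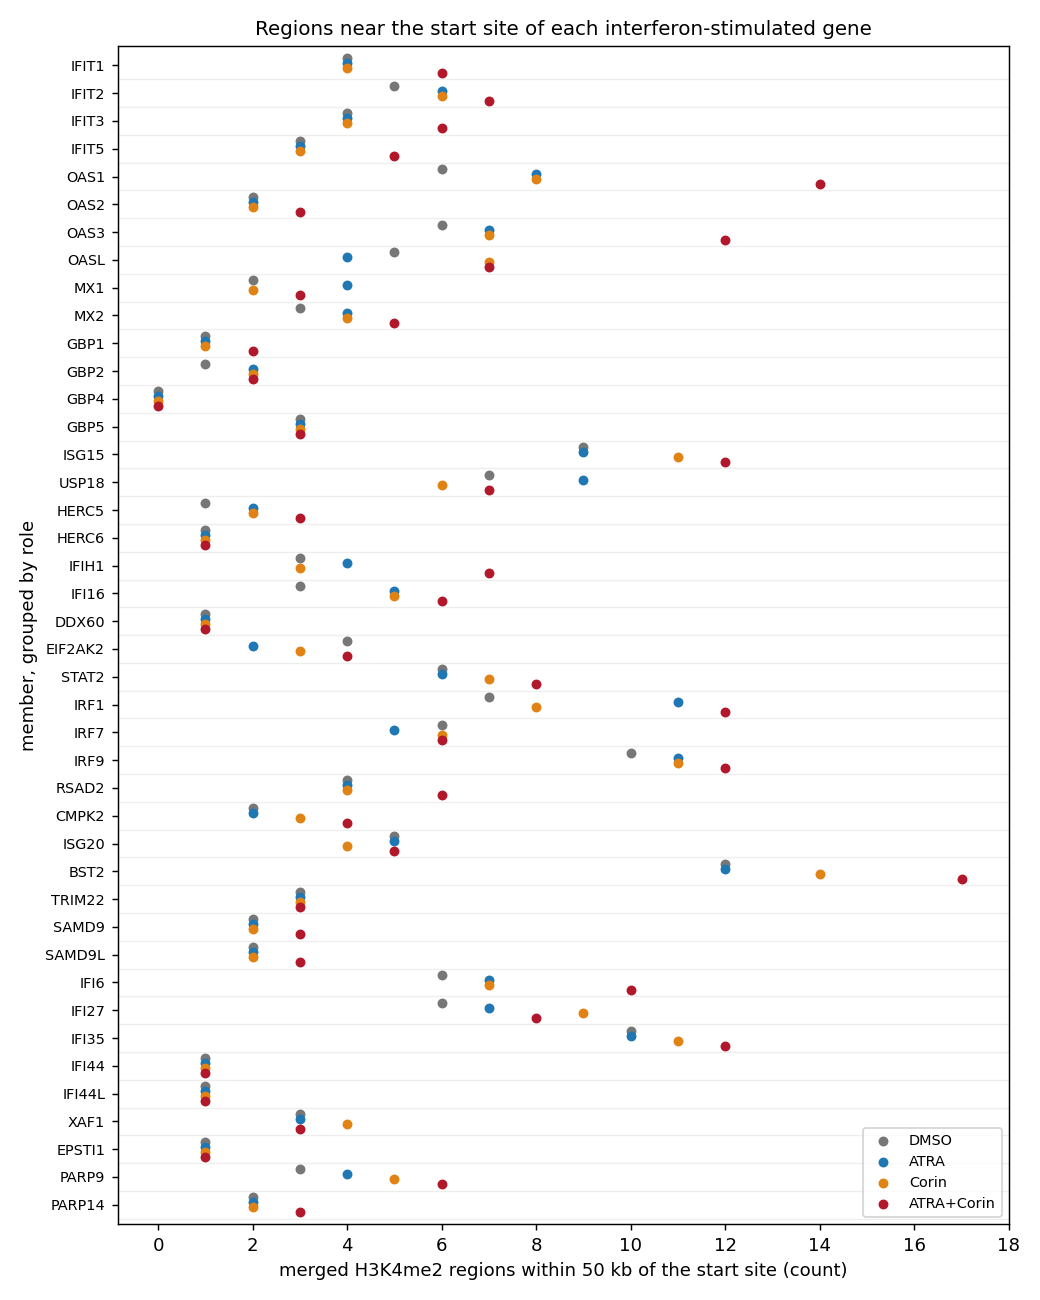
Number of merged H3K4me2 regions within 50 kb of the start site (x axis) for each of the 42 genes (rows, grouped by role), with 1 point per peak list. OAS1 has 6 regions in DMSO and 14 after the combination, and GBP4 has 0 in every list.

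OAS1 had 6 regions in DMSO, 8 after ATRA, 8 after Corin and 14 after the combination, and OAS3, which shares most of that window, had 6, 7, 7 and 12. IRF1 had 7, 11, 8 and 12. There ATRA and the combination were the high lists, and Corin was near DMSO, in merged regions only. Single peaks within 50 kb of IRF1 numbered 14, 11, 9 and 13, the most being in DMSO. They covered 11380, 17190, 15291 and 17987 bp, so in bases Corin lay above DMSO. BST2 had 12, 12, 14 and 17, IFI6 had 6, 7, 7 and 10, and IFIH1 had 3, 4, 3 and 7. IFI16 had 3, 5, 5 and 6, and ISG15 had 9, 9, 11 and 12. PARP9, with 3, 4, 5 and 6, tied with IFI16 and ISG15. The combination list had the most regions at each of these genes, which were named for their difference between it and DMSO.

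The strongest gained region after ATRA was chr12:112891690-112894561, 12401 bp upstream of OAS1 and within RPH3A outside its canonical exons. Its −log10 q was 31.7 after ATRA, 5.11 after Corin and 14.2 after the combination. The next were chr21:41405988-41406664, within MX2 and 19575 bp upstream of MX1, and chr12:112870403-112870704, 36258 bp upstream of OAS1. Both were also in the combination list and not in the Corin list.

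The strongest gained regions after Corin were 2 regions near PARP9 and 1 near IRF9. The first, chr3:122572620-122573799, lay on an exon of DTX3L, the partner of PARP9, with a −log10 q of 14.9 after Corin and 17.6 after the combination and no peak after ATRA. The second, chr3:122538869-122539478, lay within PARP9 and was in all 3 drug lists. The third, chr14:24160319-24161103, ended 162 bp upstream of the IRF9 start site on an exon of RNF31, with a −log10 q of 1.52 after ATRA, 8.19 after Corin and 14.4 after the combination.

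The strongest gained regions after the combination were chr14:94153743-94154421, within PPP4R4 and 42928 bp downstream of the IFI27 start site, chr17:42968150-42970006, on an exon of PTGES3L and 36778 bp upstream of IFI35, and chr12:112886864-112887674, within RPH3A and 19288 bp upstream of OAS1. The first had a −log10 q of 6.51 after ATRA, 6.54 after Corin and 25.7 after the combination. The second and the third were in the Corin and combination lists.

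Of the regions lost after the combination, the strongest in DMSO was chr14:24114779-24115047, the start site of NRL, 46218 bp upstream of IRF9, with a −log10 q of 17.4 in DMSO, 26.5 after ATRA and 8.06 after Corin, and no peak after the combination. The region chr2:37168201-37168468, 11221 bp upstream of EIF2AK2, had a −log10 q of 4.30 in DMSO and was in no drug list, like chr22:18173593-18173772 within USP18. Others were chr17:43026006-43027639 on an exon of RND2, lost after the combination, chr12:121049150-121049968 near OASL and chr2:37189496-37190794 near EIF2AK2, lost after ATRA, and chr12:56374486-56375424 near STAT2, lost after Corin.

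The share of gained regions with an ISRE was close to the background. In the central 300 bases of the 64 regions gained after the combination near members, 5 held an ISRE match (7.81%), compared with 6.62% of all 27150 regions gained after the combination. Of all 224 regions near members, which include the members' own promoters, 20 did (8.93%), compared with 5.52% of all 84577 regions.

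In the rest of the pathway, 34 genes outside the family were followed. Start sites of 22 were covered in DMSO, 22 after ATRA, 16 after Corin and 15 after the combination. Of the 22 covered in DMSO, 6 (27.3%) were uncovered after Corin and 7 (31.8%) after the combination, compared with 24.4 and 25.2% of all genes covered in DMSO. Those named below are pathway genes whose cover differed between lists. The receptor chain IFNAR1 and the kinases JAK1 and TYK2 were covered in DMSO and after ATRA and uncovered in both lists with Corin. The interferon gamma receptor chain IFNGR1 and the kinase TBK1 were uncovered after the combination only. MAVS, the adaptor of RNA sensors, was uncovered after Corin only, and the phosphatase PTPN2 was covered in DMSO only. IRF2, a repressor of ISRE-bearing genes, was covered after ATRA only. JAK1 nevertheless had 2210 bp covered within 2.5 kb in DMSO, 2148 bp after ATRA, 2705 bp after Corin and 2989 bp after the combination, so its start site was uncovered in the 2 lists with the most bases covered. The interferon ligand IFNE had no peak within 1 kb in DMSO, 1 after ATRA, 1 after Corin and 2 after the combination, with its start site uncovered throughout.

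The label of the cells was checked against markers. A peak lay within 1 kb of the start site of 10 of 11 myeloid markers in each list, MPO being the one without. Start sites of 8 were covered in DMSO, 8 after ATRA, 9 after Corin and 5 after the combination. Of 16 markers of other lineages, 4 had a peak within 1 kb in each list. They were CD4, which monocytes also express, 2 of 4 B cell markers and 1 of 3 erythroid markers. Of all 19970 protein-coding genes, 12245 had such a peak in DMSO, 12277 after ATRA, 12278 after Corin and 12434 after the combination. Over the genome, the lists held 65172 peaks in DMSO, 66385 after ATRA, 73997 after Corin and 83969 after the combination, covering 73.4, 83.7, 95.0 and 108.5 Mb. The covered length thus moved in the same order as the members' breadth. At equal covered length the members' median difference stayed above that of all genes, as given above for the combination. That trimming shortened no kept peak, so it cannot show how list length bears on the breadth of single peaks, which was not tested.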

How the data were processed

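H3K4me2 was measured in U-937 cells in 4 treatments with 2 H3K4me2 libraries and 1 input library each, per the labels. The authors deposited 1 peak list per treatment, pooled over its libraries, whose name describes an optimal set of peaks reproducible by overlap. Trimmomatic, Bowtie2, Picard, MACS2 and the build hg38 are named in the submitters' processing notes, which give no versions. Each deposited peak has a fold enrichment (a ratio) and a −log10 p and −log10 q from the authors' caller, used here to describe single peaks, to rank them and to set a minimum, within each list. All peaks ended within the GRCh38 chromosomes.

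Peaks were read in Python 3.11.15 with pandas 2.3.3, counted from 1, and set against GENCODE release 44. A start site was covered when a peak overlapped it by at least 1 bp. Windows were 2.5 kb for breadth and 50 kb for regions. Interval code was tested on simulated data. Alternatives tried included a −log10 q minimum of 5, lists cut to the same number of peaks by −log10 p, peaks within 1 kb merged, single peaks with 50% overlap, other windows and other start sites. Equal covered length, and all alternatives for breadth, were chosen after seeing the data. The members and lists were chosen with earlier results of these data known. Named were IFIT1, ISG15, MX1, OAS1, STAT2, IRF1, IRF7 and IRF9, members whose start-site cover differed between lists, the 8 with the largest difference in regions between the combination and DMSO (ties by listed order), and the 3 strongest gained and lost regions per treatment. Other members were named after their values were seen. No test was made, because no values per replicate were used. Results for some of the pathway and marker genes are not reported here.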

Additional observations from a re-analysis of the deposited data

How the results depend on the processing

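Of 125 alternatives to 23 results, 67 stayed within 1.5 times the main count and 58 moved. In all 7 alternatives of each of the 5 contrasts, more regions were gained than lost. No paired analysis was possible because each treatment has 1 pooled list, and for the same reason no replicate could be left out. Counting a peak within 1 kb as cover, the start sites uncovered were 0 after ATRA, Corin and the combination, and 1 was newly covered after the combination. With any annotated start site, 0 were uncovered after ATRA. The next counts are regions gained within 50 kb, in the order ATRA, Corin and the combination against DMSO, then the combination against ATRA and against Corin. A −log10 q minimum of 5, asked only of the peak that makes a region gained or lost, gave 12, 17, 31, 26 and 20. A 10 kb window gave 6, 7, 19, 17 and 15, and a 100 kb window gave 43, 58, 113, 95 and 77. Merging peaks within 1 kb gave 13 for ATRA, 32 for the combination, 28 against ATRA and 20 against Corin. Single peaks with 50% overlap gave 46, 60 and 103 against DMSO. The same minimum asked of both lists gave 42 for the combination and 29 against ATRA. The same number of peaks gave 38 for the combination, 34 against ATRA and 27 against Corin. For regions lost, in the same order, the minimum on that peak alone gave 1, 0, 2, 3 and 4, the 10 kb window 2, 0, 0, 2 and 3, and the 100 kb window 20, 17, 15, 20 and 20. Single peaks gave 16, 9 and 11 against DMSO and 17 against Corin. Merging gave 2 for the combination, 5 against ATRA and 5 against Corin. The minimum in both lists gave 2 for ATRA and 3 for the combination, and the same number of peaks gave 8 for the combination and 18 against ATRA. Wider windows and stricter minimums change counts by their construction; the cause of the other moves was not tested. Peak lists give no value below the caller's threshold, so an uncovered site is one without a called peak.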
